A study of Mus musculus with 38 samples.

Results

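Epithelial to mesenchymal transition (EMT) genes were followed through mouse pluripotent states: the transcription factors Snai1, Snai2, Zeb1, Zeb2 and Twist1, the intermediate filament gene Vim, and the cadherins Cdh2 and Cdh11. These 8 genes were taken by name, and each was found once, by its Ensembl identifier, among the 29267 genes measured in 38 RNA libraries. Of the 8 genes, 7 passed the filter on low counts in the comparison of stem cell lines (Snai2 did not), and 8 passed it in the transition series and in the Jun knockout series. A level is given per library as TPM, the transcript abundance scaled by transcript length and library size. A change is given as a log2 fold change with its standard error (SE), fitted to read counts with edgeR, and is called where the Benjamini-Hochberg adjusted p over all genes tested was under 0.05.

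Naive embryonic stem cells (ESC, n = 5) were grown in N2B27 medium with 2i and LIF, and primed epiblast stem cells (EpiSC, n = 4) with Activin A and bFGF. The ESC labels give a strain, CBA/CaJ X C57BL/6J, for replicates 1 and 2 alone. The methods name another cross for both ESC and EpiSC, with OG2 males, which carry an Oct4-GFP reporter. Which cross each ESC library came from was not settled. EpiSC with a stable Klf4 transgene (kEpiSC, n = 2) were moved to the reprogramming medium iCD1, and RNA was taken on days 1, 2 and 3 of the primed-to-naive transition (PNT-D1, PNT-D2 and PNT-D3, n = 2 each) and from the induced pluripotent cells at its end (kiPSC, n = 2). The same 3 days were sampled with the JNK inhibitor SP600125 in the medium (PNT-JNKi, n = 2, 3 and 2). All kEpiSC, PNT and kiPSC libraries therefore carry the Klf4 transgene and its selection, and the sources used here do not say whether the line is a single clone. In a further set, ESC with a CRISPR deletion in Jun (JunKO) and wild-type ESC (WT) had been converted to primed cells, named iEpiSC and, with Klf4, kiEpiSC (1 library per genotype of each). The kiEpiSC of each genotype were then taken through iCD1 without or with JNKi to day 3 (n = 2 for each genotype and medium).

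EMT is the programme by which epithelial cells loosen their junctions and take on a migratory, mesenchymal form, as at gastrulation, when cells of the epiblast leave through the primitive streak. SNAI and ZEB proteins are zinc finger repressors that bind E-box motifs, among others in the promoter of Cdh1, which encodes E-cadherin, and TWIST1 is a basic helix-loop-helix factor that also binds E-boxes. Vim encodes vimentin, Cdh2 encodes N-cadherin, and Cdh11 encodes a cadherin of mesenchyme and osteoblasts. The AP-1 factor c-Jun is activated by the kinase JNK.

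Library totals ran from 2164711 to 15944950 counts. Jun was at 5.01 to 14.6 TPM in the 6 JunKO libraries, against 40.4 to 240.4 TPM in the 6 WT libraries. A sum of 5 naive markers was 1644 to 2176 TPM in ESC against 187.3 to 257.9 TPM in EpiSC, and a sum of 4 primed markers was 5.32 to 20.3 TPM against 259.2 to 563.1 TPM. Klf4 was at 65.2 and 102.6 TPM in kEpiSC against 0.52 to 1.94 TPM in EpiSC. It was also at 36.3 TPM in JunKO-iEpiSC and 36.6 TPM in WT-iEpiSC, so the absence of the transgene from iEpiSC could not be read from these values. EpiSC replicate 1 stood apart from the other EpiSC in several of the genes described, and ESC replicate 5 carried fibroblast transcripts (Postn 43.8 TPM and Dcn 11.4 TPM). They were also present in EpiSC replicates 2 to 4, with Dcn at 4.49, 7.0 and 11.79 TPM and Postn at 5.02, 4.78 and 8.54 TPM. The summed level of 8 mesoderm markers was 898.7 TPM in EpiSC replicate 1, most of it from T (763.7 TPM), against 30.7 to 98.8 TPM in EpiSC replicates 2 to 4. In bulk RNA, fewer cells of a type and less RNA per cell cannot be told apart.

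The 250 bases before a RefSeq transcription start (GRCm38.p6) are shown for 3 of the factors. These factors were taken because they moved at different times in the transition, Snai1 and Zeb2 on day 1 and Twist1 on day 2. The windows are chr2:167537945-167538194 (plus strand) for Snai1, chr2:45117443-45117692 (minus strand) for Zeb2 and chr12:33957421-33957670 (plus strand) for Twist1. They lie upstream of the gene and overlap no GENCODE exon. Capitals mark E-boxes.
Snai1: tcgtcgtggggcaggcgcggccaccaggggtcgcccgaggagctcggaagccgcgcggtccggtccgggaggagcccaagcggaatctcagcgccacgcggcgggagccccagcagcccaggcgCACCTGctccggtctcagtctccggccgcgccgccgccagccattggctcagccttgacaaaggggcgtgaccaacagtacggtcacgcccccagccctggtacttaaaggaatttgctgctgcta
Zeb2: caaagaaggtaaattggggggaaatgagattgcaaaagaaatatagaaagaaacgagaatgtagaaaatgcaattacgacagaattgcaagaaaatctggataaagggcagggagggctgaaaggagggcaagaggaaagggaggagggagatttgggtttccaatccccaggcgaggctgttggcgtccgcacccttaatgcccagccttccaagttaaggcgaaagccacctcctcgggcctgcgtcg
Twist1: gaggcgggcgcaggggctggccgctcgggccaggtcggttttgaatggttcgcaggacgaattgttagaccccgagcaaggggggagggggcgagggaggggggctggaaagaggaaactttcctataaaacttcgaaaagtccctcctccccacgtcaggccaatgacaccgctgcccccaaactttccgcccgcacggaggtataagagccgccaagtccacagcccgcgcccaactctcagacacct
The Snai1 window holds 1 E-box (CANNTG, here CACCTG, the form that SNAI and ZEB proteins bind), and the Zeb2 and Twist1 windows hold 0. No AP-1 motif (TGANTCA) and no CRE (TGACGTCA) was found in any of the 3 windows shown. Zeb2 has further RefSeq starts, whose windows are not shown and overlap exons. The window before another Zeb2 start, chr2:45110278-45110527, holds 2 AP-1 motifs. Both strands were searched. Among 32851 windows of the same length, 66.2% hold CANNTG, 17.2% hold CACCTG (each of which is also an E-box), 6.7% hold TGANTCA and 1.5% hold TGACGTCA. GC content is 70% in the Snai1 window, 49.6% in the Zeb2 window and 62.4% in the Twist1 window.

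In mm10, with GENCODE M21 gene models, Snai1 (ENSMUSG00000042821) lies on the plus strand of chromosome 2 from 167538195 to 167542814 and Vim (ENSMUSG00000026728) on the same strand from 13573927 to 13582826. Zeb2 (ENSMUSG00000026872) is on the minus strand of chromosome 2 from 44983632 to 45117395, and Twist1 (ENSMUSG00000035799) on the plus strand of chromosome 12 from 33957671 to 33959829. Snai2 (ENSMUSG00000022676) is on chromosome 16 and Cdh11 (ENSMUSG00000031673) on chromosome 8, while Zeb1 (ENSMUSG00000024238) and Cdh2 (ENSMUSG00000024304) are both on chromosome 18. Counts were summed over each gene's annotated transcripts, 1 for Snai1, Snai2, Twist1 and Cdh11, and 9, 14, 6 and 3 for Zeb1, Zeb2, Vim and Cdh2.

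In bulk RNA, the primed to naive transition opened with a broad rise of these genes. On day 1 in iCD1, 7 of the 8 were called higher than in kEpiSC, Snai1, Zeb2, Cdh11 and Cdh2 most, and Twist1 followed on day 2. By day 3 all 8 were called above kEpiSC, and in kiPSC Snai1, Zeb2, Twist1, Vim and Cdh2 were called lower than on day 3. Pou5f1, a shared pluripotency marker, was at 1982 to 2037 TPM in kEpiSC, 35.5 to 43.4 TPM on day 3 and 1576 to 1759 TPM in kiPSC. The naive marker sum was 130.7 and 90.4 TPM in kEpiSC, 44.2 and 30.85 TPM on day 3, and 2358 and 1506 TPM in kiPSC. The paper calls the transition inefficient. Which cells in these bulk libraries carried the values, and which gave rise to kiPSC, was not tested. Of all 14892 genes tested, 46.3% were called on day 1 against kEpiSC in either direction, and 23.2% of all genes tested were called higher.

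Snai1 had 4.82 and 4.63 TPM in kEpiSC, 78.6 and 68.5 TPM on day 1, 74.4 and 81.0 TPM on day 2, 28.8 and 17.7 TPM on day 3, and 7.65 and 5.55 TPM in kiPSC. It was high on days 1 and 2, with no overlap between those libraries and any other of this course. It rose 14.3-fold on day 1 (log2 3.83 ± 0.33 SE, adjusted p = 2.15e-07). It fell again on day 3 against day 2 (log2 -1.85 ± 0.30, adjusted p = 0.00131) and in kiPSC against day 3 (log2 -1.69 ± 0.36, adjusted p = 0.00083). Its difference in kiPSC from kEpiSC was not called (log2 0.41 ± 0.38, adjusted p = 0.378).

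Zeb2 had 1.76 and 1.17 TPM in kEpiSC, 15.2 and 16.9 TPM on day 1, 23.6 and 18.5 TPM on day 2, and 10.8 and 12.8 TPM on day 3. Every PNT library was above both kEpiSC libraries. The rise on day 1 was 10.1-fold (log2 3.34 ± 0.23, adjusted p = 2.36e-08), and the fall on day 3 against day 2 was 2.24-fold (log2 -1.16 ± 0.21, adjusted p = 0.00245). In kiPSC the TPM of Zeb2 rests on few reads. Replicate 1 had 7 counts and 0.37 TPM, and replicate 2 had 3 counts and 2.38 TPM with a gene length of 553 bases, where other libraries had up to 6275 bases. In CPM, counts scaled to library size alone, Zeb2 had 0.803 and 0.5256 in kiPSC against 24.7 and 33.1 on day 3, a 40.6-fold fall (log2 -5.34 ± 0.35, adjusted p = 3.89e-09).

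Zeb1 took another course from its paralog Zeb2 at the end of the transition. It had 1.92 and 2.04 TPM in kEpiSC, 10.5 and 9.29 TPM on day 1, 18.4 and 12.9 TPM on day 2, 14.9 and 16.5 TPM on day 3, and 11.7 and 10.7 TPM in kiPSC. It rose on day 1 (log2 1.72 ± 0.21, adjusted p = 1.05e-05) and again on day 2 (log2 1.12 ± 0.20, adjusted p = 0.00105). In kiPSC it stayed 5.26-fold above kEpiSC (log2 2.40 ± 0.21, adjusted p = 1.44e-07), and its difference from day 3 was not called (log2 -0.22 ± 0.20, adjusted p = 0.354). The level of Zeb1 in kiPSC lay within the 6.32 to 16.7 TPM of ESC.

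Twist1 was called higher for the first time on day 2. It had 4.32 and 6.37 TPM in kEpiSC, 4.87 and 3.47 TPM on day 1, 25.7 and 24.2 TPM on day 2, 36.5 and 43.0 TPM on day 3, and 1.10 and 4.07 TPM in kiPSC. The kEpiSC and day 1 libraries overlapped (log2 -0.48 ± 0.55, adjusted p = 0.5), and the days 2 and 3 libraries were above them all. It rose 6.12-fold on day 2 against day 1 (log2 2.61 ± 0.53, adjusted p = 0.00299), where 16.5% of all genes were called, 7.1% higher, and 2 of the 8 genes, Twist1 and Zeb1, were called, both higher. The fall in kiPSC against day 3 was 15.3-fold (log2 -3.93 ± 0.59, adjusted p = 3.43e-05). The kiPSC libraries stood apart from each other, and the change was -3.18 without kiPSC replicate 1 and -5.01 without kiPSC replicate 2, called lower each time.

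Cdh2 had 17.9 and 16.7 TPM in kEpiSC, 128.1 and 121.9 TPM on day 1, 135.3 and 144.6 TPM on day 2, 140.8 and 144.6 TPM on day 3, and 3.01 and 3.47 TPM in kiPSC. It reached its plateau within 1 day, rising 6.4-fold (log2 2.68 ± 0.11, adjusted p = 1.62e-10), with no call between the days that followed. Its fall in kiPSC against day 3, 41.4-fold (log2 -5.37 ± 0.14, adjusted p = 1.12e-12), was the largest of the 8 genes in any comparison of adjacent stages here. In kiPSC it was also 6.11-fold below kEpiSC (log2 -2.61 ± 0.14, adjusted p = 5.94e-10).

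Vim was the most abundant of the 8 genes in every library and had the smallest of the called changes on day 1, on day 3 against kEpiSC and in kiPSC against day 3. It had 185.4 and 207.5 TPM in kEpiSC, 338.3 and 360.9 TPM on day 1, 363.5 and 396.6 TPM on day 2, 430.4 and 390.4 TPM on day 3, and 231.7 and 101.4 TPM in kiPSC. The PNT libraries of all 3 days were above those of kEpiSC and kiPSC. The rise on day 1 was 1.67-fold (log2 0.74 ± 0.20, adjusted p = 0.00718), and the fall in kiPSC against day 3 was 2.52-fold (log2 -1.33 ± 0.21, adjusted p = 5.1e-05). Without kiPSC replicate 1 that fall was -1.93 on the log2 scale and still called. The kiPSC libraries lay on either side of kEpiSC, and Vim was not called between them (log2 -0.35, adjusted p = 0.156). Without kiPSC replicate 1 it was called lower (log2 -0.95, adjusted p = 4.17e-05, in a range up to 0.778 over the alternatives).

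Cdh11 had 1.02 and 0.80 TPM in kEpiSC, 8.06 and 5.73 TPM on day 1, 4.29 and 3.91 TPM on day 2, 3.29 and 3.31 TPM on day 3, and 2.84 and 3.05 TPM in kiPSC. Its highest values were on day 1, when it rose 6.92-fold (log2 2.79 ± 0.39, adjusted p = 3.45e-05). In kiPSC it remained 3-fold above kEpiSC (log2 1.59 ± 0.41, adjusted p = 0.00342), as Zeb1 did. Snai2 was close to the limit of detection throughout, with 0 to 29 counts and at most 4.10 TPM per library in all 38. It was called higher on day 1 (log2 2.27 ± 0.59, adjusted p = 0.0055) and on day 3 (log2 2.48 ± 0.61, adjusted p = 0.00317) against kEpiSC, where it had 0.35 and 0.47 TPM.

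**Figure D1:**
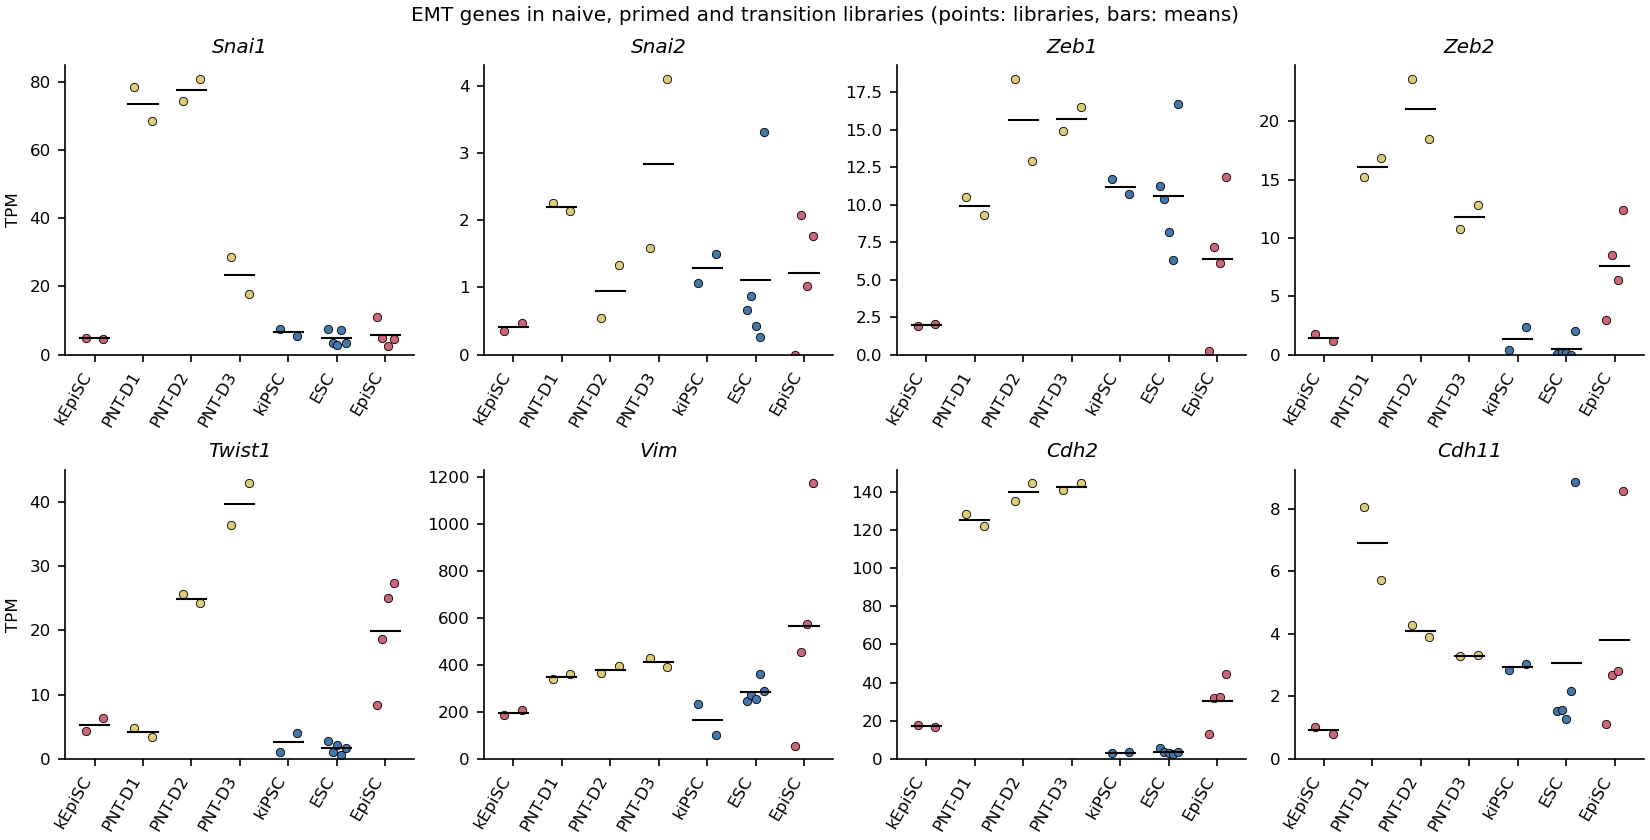
TPM of the 8 genes in kEpiSC, PNT on days 1 to 3, kiPSC, ESC and EpiSC, 1 panel per gene with its own vertical axis from 0; points are libraries and bars are group means. Snai1 peaks on days 1 and 2 and Twist1 on day 3. Cdh2 stays between 121.9 and 144.6 TPM on all 3 days and falls to 3.01 and 3.47 TPM in kiPSC, below kEpiSC.

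In the counts over the 8 genes, 2 of 8 were called lower on day 3 against day 2 (Snai1 and Zeb2, with 12.2% of all genes called and 6.1% called lower). On day 3 against kEpiSC 8 of 8 were called higher, with log2 changes between 0.98 (Vim) and 2.76 (Cdh2), 50.6% of all genes called and 25.2% called higher. In kiPSC against day 3, 5 of 8 were called, all lower, with 57.9% of all genes called and 28.6% called lower, and the remaining 3 were Zeb1, Cdh11 (log2 -0.04 ± 0.40) and Snai2 (log2 -0.99 ± 0.59). In kiPSC against kEpiSC 4 of 8 were called, Zeb1 and Cdh11 higher and Cdh2 and Zeb2 lower, with 57.5% of all genes called, so that the share of these genes was near that of all genes. The median log2 change of the 8 genes was 2.48 on day 1 and 2.55 on day 3 against kEpiSC, and -1.51 in kiPSC against day 3, where the median over all genes tested was 0.00 each time. Without kEpiSC replicate 1, Vim (log2 0.64, adjusted p = 0.0697) and Snai2 (log2 2.08, adjusted p = 0.0539) lost their call on day 1. Without PNT-D3 replicate 2, Snai2 lost it on day 3 (log2 1.72, adjusted p = 0.0752). Over all alternatives run, adjusted p for these 3 results ran from 1.22e-07 to 0.302, from 0.0016 to 0.0539 and from 0.000657 to 0.0752.

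**Figure D2:**
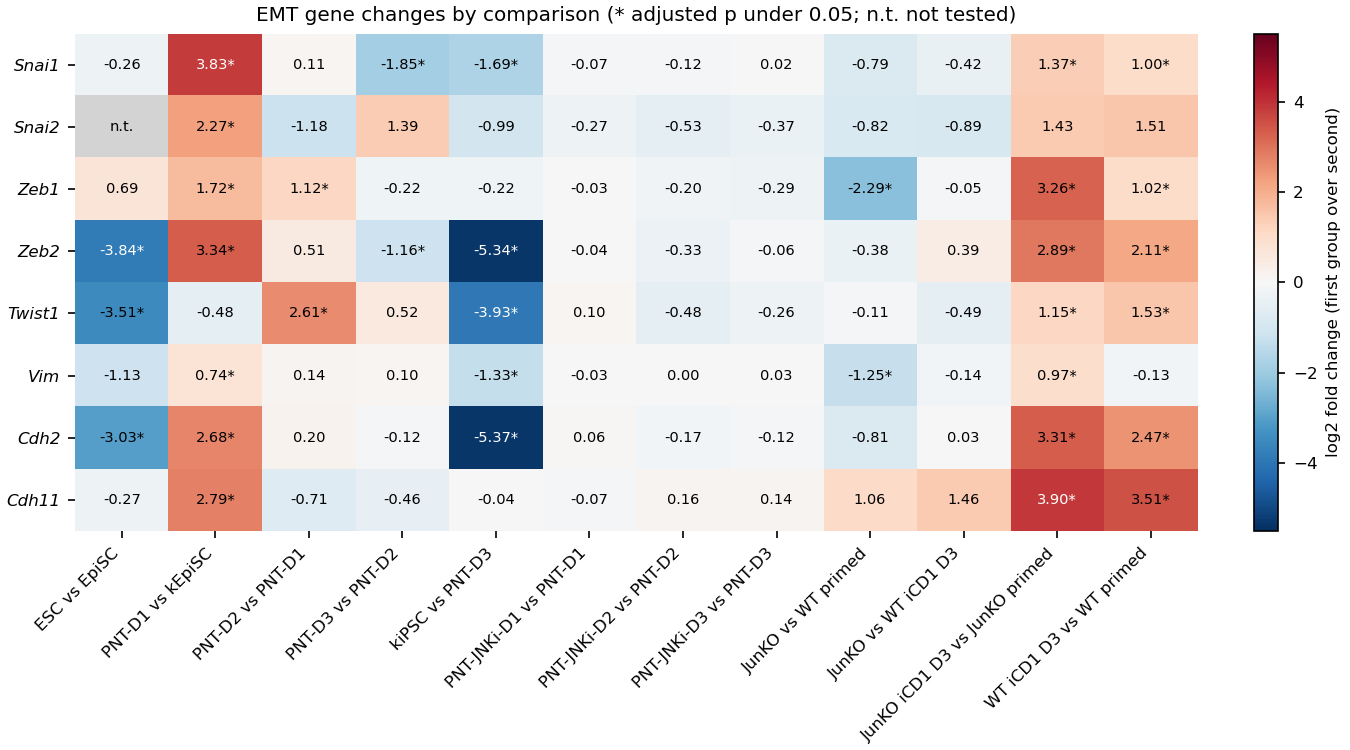
Log2 fold changes of the 8 genes (rows) in the comparisons (columns), with the first named group over the second; colour gives the sign and size, an asterisk marks an adjusted p under 0.05 and n.t. a gene not tested. Calls number 7 of 8 on day 1 against kEpiSC, with 46.3% of all genes called, and 5 of 8 in kiPSC against day 3, with 57.9% called. There are 0 in the 3 columns for JNKi, where 0%, 0.00672% and 0% of all genes were called on days 1, 2 and 3.

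Other genes of the EMT programme were counted beside these. Of 12 further EMT regulators, 4 were higher and 2 lower on day 1, and 10 were higher and 2 lower on day 3 against kEpiSC (median log2 0.36 and 2.62, against 0.00 for all genes). The forkhead gene Foxc1 rose with Snai1 on day 1 (log2 3.47), to 16.3 and 17.9 TPM on day 1 against 1.09 and 1.74 TPM in kEpiSC. On day 2 against day 1, 5 of these 12 were higher and 0 lower. Among them was the forkhead gene Foxc2, at 38.2 to 46.4 TPM on day 2 against 0.17 to 0.57 TPM on day 1. The 2 regulators that were lower on day 3 than in kEpiSC were Snai3, the third SNAI paralog, at 0 to 0.28 TPM on day 3 against 8.65 to 11.4 TPM in kEpiSC, and Gsc, a homeobox gene of the anterior primitive streak, at 0.24 to 0.73 TPM against 7.40 to 9.41 TPM. In kiPSC against day 3, Gsc and Snai3 were higher, and 9 of the 12 were lower (median log2 -2.42). Those that fell furthest were Sox9, at 0 to 0.05 TPM in kiPSC against 17.3 to 20.6 TPM on day 3, Foxc2, at 0.12 to 0.23 TPM against 11.6 to 21.8 TPM, and Ets1 (log2 -5.98).

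The matrix and cytoskeletal genes usually read beside Vim did not move as a block. Of 18 tested on day 1 against kEpiSC, 5 were higher and 7 lower (median log2 -1.23), and the lower ones included Ccn2 (log2 -4.44), a secreted matricellular protein, Thbs1 (log2 -3.38), encoding thrombospondin, and Tagln (log2 -2.30), an actin binding protein. On day 3, 7 were higher and 5 lower (median log2 -0.12), with the fibrillar collagen gene Col3a1 higher (log2 3.84) and the matrix genes Ccn2 (log2 -5.01) and Tnc (log2 -3.48) lower. Of 11 TGF-beta pathway genes (ligands, receptors, SMADs and Skil), 4 were higher and 4 lower on day 1 (median log2 -0.18). This pathway is a usual upstream input of the SNAI and ZEB factors. The ligand Tgfb3 was higher (log2 1.83), and the inhibitory SMAD Smad7 (log2 -1.58) and the co-receptor Tgfbr3 (log2 -1.47) were lower.

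Mesoderm genes moved on the same day as Snai1 and Cdh2. Of 8 tested, 6 were higher and 1 lower on day 1 (median log2 5.15). The summed level of the list was 65.8 and 78.8 TPM in kEpiSC, 2438 and 2562 TPM on day 1, 714.8 and 852.6 TPM on day 2, 444 and 448.1 TPM on day 3, and 8.79 and 14.8 TPM in kiPSC. The largest changes were in 3 genes of presomitic and paraxial mesoderm. Msgn1, a basic helix-loop-helix factor, was at 283.6 to 297.5 TPM on day 1, against 0 to 0.27 TPM in kEpiSC, and the T-box gene Tbx6 at 90.9 to 101.1 TPM against 1.46 to 1.67 TPM. The homeobox gene Meox1 was at 3.01 to 5.49 TPM on day 1, against 0.05 to 0.1 TPM in kEpiSC. The relation of these genes to the EMT genes was not tested beyond the correlations given further on. Of the 6 fibroblast markers tested, 3 were called higher on day 1 than in kEpiSC and 1 lower (median log2 1.65). Pdgfrb (log2 4.14), which is also expressed in embryonic mesoderm, and Dcn (log2 2.52), a stromal proteoglycan gene, were higher. So was Col6a3, a collagen VI gene, at 0.66 to 0.75 TPM on day 1 against 0.02 to 0.24 TPM in kEpiSC, and the matrix gene Postn was lower, at 0.09 to 0.12 TPM against 1.19 to 1.57 TPM. On day 3, 2 of the 6 were higher than in kEpiSC, Pdgfrb (log2 4.48) and Prrx1 (log2 3.18), which is likewise expressed in embryonic mesoderm. The sum of all 7 markers was 11.4 and 13.6 TPM in kEpiSC, 45.3 and 49.1 TPM on day 1, 62.9 and 75.6 TPM on day 2, and 44.2 and 57.9 TPM on day 3, of which Pdgfrb made up 22.9 to 34.9 TPM per library. Dcn was at 0.5 to 0.8 TPM in kEpiSC, 3.9 to 4.23 TPM on day 1 and 0 to 0.33 TPM on day 3. Lum, another stromal proteoglycan gene, was at 0 to 0.06 TPM in kEpiSC, 0.23 to 0.55 TPM on day 1 and 0 in both libraries on day 3. The part of either marker group in the rise of the EMT genes was not tested.

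Some neural and neural crest genes were also called on day 2, as Twist1 was. Of the 8 tested, 1 was higher and 2 lower on day 1 against kEpiSC (median log2 -0.09), 2 higher and 1 lower on day 2 against day 1 (median log2 0.93), and 5 higher and 3 lower on day 3 against kEpiSC (median log2 2.61). Pax3, a paired box gene of dorsal neural tube, neural crest and somites, was at 0 TPM in both kEpiSC libraries, 0 to 0.07 TPM on day 1, 2.11 to 3.35 TPM on day 2 and 13.48 to 21.96 TPM on day 3. Pax6, a paired box gene of neural progenitors, was at 0.05 to 0.13 TPM in kEpiSC, 0.59 to 0.66 TPM on day 1, 1.66 to 2.32 TPM on day 2 and 5.66 to 6.7 TPM on day 3. Both were called higher on day 2 against day 1 and on day 3 against kEpiSC. The neural crest factor Sox10 was higher on day 3, at 1.89 to 2.52 TPM against 0.04 TPM in both kEpiSC libraries, and Foxd3, a factor of epiblast and early neural crest, was lower, at 0 to 0.87 TPM against 47.5 to 52.3 TPM. Nes (log2 -2.68) and Tubb3 (log2 -2.61), encoding nestin and a neuronal tubulin, were lower on day 3 as well. In kiPSC against day 3, where Twist1 fell, 3 of the 8 were higher and 4 lower (median log2 -0.42). Their part in the values of Twist1 was not tested.

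Cdh1 fell on day 2, a day after Cdh2 rose. Cdh1 had 285.2 and 272.6 TPM in kEpiSC, 244.3 and 268.8 TPM on day 1, 70.3 and 74.1 TPM on day 2, 61.5 and 49.2 TPM on day 3, and 326.7 and 321.7 TPM in kiPSC. Its change on day 1 was not called (log2 -0.24 ± 0.17), and it fell on day 2 against day 1 (log2 -1.78 ± 0.18) and was higher again in kiPSC than on day 3 (log2 2.62 ± 0.19). Of 20 epithelial genes, 4 were higher and 9 lower on day 1 (median log2 -0.76), with Esrp2, a splicing regulator of epithelia, higher (log2 2.27) and the junction and trafficking genes Cldn7 (log2 -2.95) and Rab25 (log2 -2.72) lower. On day 2 against day 1, 0 were higher and 11 lower (median log2 -1.02), led by Krt19 (log2 -1.92), Cdh1 and Krt8 (log2 -1.53), a keratin of simple epithelia like Krt19. In kiPSC against day 3, where Cdh1 was higher, 4 of the 20 were higher and 10 lower (median log2 -0.77). The lower ones were led by the keratins Krt19, at 0.34 to 0.96 TPM in kiPSC against 30.3 to 36.0 TPM on day 3, and Krt18 (log2 -4.68) and by Esrp1 (log2 -5.52).

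The ratio of Cdh2 to Cdh1 TPM puts both cadherins on a single scale. It was 0.0628 and 0.0614 in kEpiSC, 0.525 and 0.453 on day 1, 1.93 and 1.95 on day 2, 2.29 and 2.94 on day 3, and 0.00921 and 0.0108 in kiPSC. It passed 1 between days 1 and 2, and the stages did not overlap. ESC had 0.00869 to 0.0244, and the kiPSC values lay within that range.

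**Figure D3:**
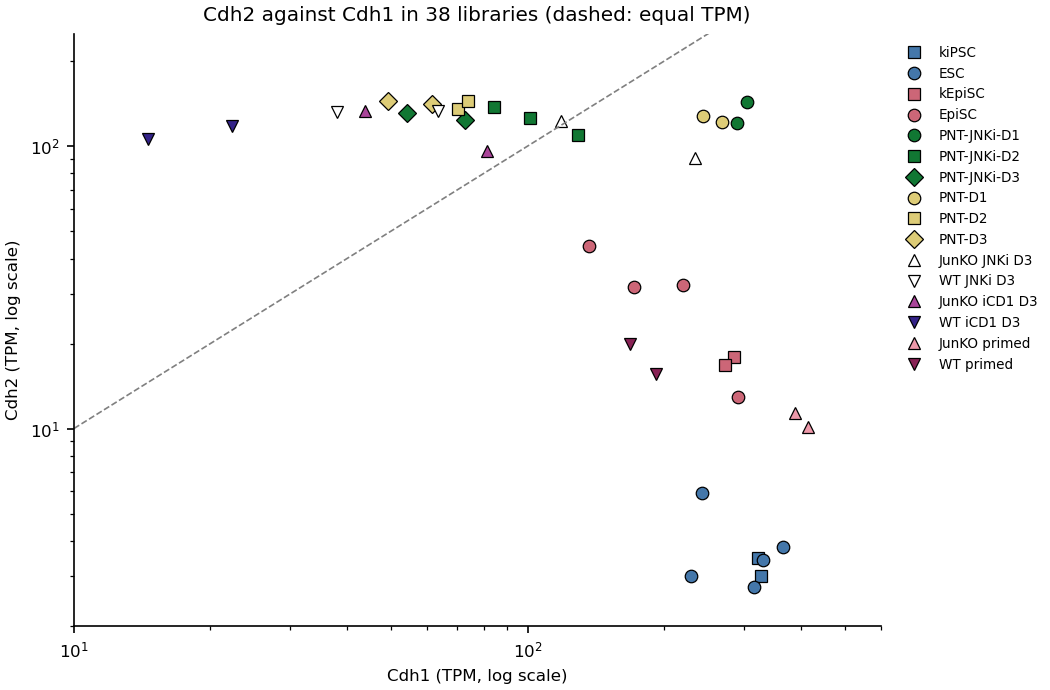
Cdh2 TPM (vertical, log axis) against Cdh1 TPM (horizontal, log axis) in 38 libraries, coloured by group; the dashed line marks equal TPM of both genes. ESC and kiPSC lie at the lower right with ratios of 0.0244 or less, and PNT-D2, PNT-D3 and WT-kiEpiSC-iCD1 lie above the line.

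Between the established lines, naive cells had less of 3 of these genes than primed cells. In ESC against EpiSC, 3 of 7 tested were called, all lower, Cdh2, Twist1 and Zeb2, where 50.9% of 13923 genes were called and 23.8% were called lower, so that the share called in either direction was near that of all genes. The median log2 change of the 7 genes was -1.13, against 0.02 for all genes tested.

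Cdh2 had 5.93, 3.43, 3, 2.75 and 3.80 TPM in ESC, against 12.97, 31.6, 32.2 and 44.4 TPM in EpiSC. Twist1 had 2.84, 1.10, 2.14, 0.66 and 1.62 TPM in ESC, against 8.34, 18.7, 25.0 and 27.4 TPM in EpiSC. In both genes every ESC library was below every EpiSC library, and EpiSC replicate 1 was the lowest of its group. Cdh2 was 8.17-fold lower (log2 -3.03 ± 0.30, adjusted p = 4.37e-06) and Twist1 11.4-fold lower (log2 -3.51 ± 0.48, adjusted p = 5.83e-05). ESC replicates 1 to 4 were processed with another fragment length. The median over genes of gene length minus effective length was 73.5 bases there, where all other libraries had 133.1 to 192.1 bases. With ESC replicate 5 as the sole ESC library, which removes that difference, Cdh2 (log2 -2.89, adjusted p = 0.0053) and Twist1 (log2 -3.61, adjusted p = 0.0149) were still called lower.

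Zeb2 had 0.02, 0.24, 0.11, 0 and 2.06 TPM in ESC, against 2.93, 8.57, 6.40 and 12.4 TPM in EpiSC. Replicates 1 to 4 of ESC held 3 Zeb2 counts in all, against 214 in the 4 EpiSC libraries. Scaled for depth, EpiSC had 112 times the level of those 4 ESC libraries (95% interval 37.8 to 547.4, counting error only). With all 5 ESC libraries Zeb2 was lower in ESC (log2 -3.84 ± 0.86, adjusted p = 0.00226). With ESC replicate 5 as the sole ESC library, it was not called (log2 -2, adjusted p = 0.0779, the upper end of a range from 2.31e-06 over the alternatives).

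Zeb1, in contrast with its paralog, was present in naive cells, at 11.3, 10.4, 8.17, 6.32 and 16.7 TPM in ESC against 0.26, 7.19, 6.12 and 11.8 TPM in EpiSC, and was not called (log2 0.69 ± 0.50, adjusted p = 0.262). Vim had 246.7, 273.1, 253.5, 360.7 and 287.1 TPM in ESC, against 56.2, 455.5, 574.7 and 1175 TPM in EpiSC. Within EpiSC, replicate 1 was lowest in both Vim and Zeb1, and replicate 4 was highest in both. Vim was not called (log2 -1.13 ± 0.50, adjusted p = 0.0734) and was called lower in ESC without EpiSC replicate 1 (log2 -1.44, adjusted p = 0.00143, the range over the alternatives being 0.00143 to 0.474). The fibroblast marker sum was 16.3 TPM in EpiSC replicate 1 and 25.1 to 66.0 TPM in EpiSC replicates 2 to 4, and the mesoderm marker sum was 898.7 TPM and 30.7 to 98.8 TPM. Their part in the EpiSC values was not tested.

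Snai1 had 2.67 to 7.65 TPM (median 3.52) in ESC against 2.62 to 10.9 TPM (median 4.72) in EpiSC (log2 -0.26 ± 0.47, adjusted p = 0.674). Cdh11 had 1.54, 1.56, 1.29, 2.16 and 8.86 TPM in ESC against 1.11, 2.68, 2.80 and 8.58 TPM in EpiSC (log2 -0.27 ± 0.63, adjusted p = 0.742). In both genes the groups overlapped. The log2 change of Snai1 was 0.37 without EpiSC replicate 1, the highest of its group, and -0.74 with ESC replicate 5 as the sole ESC library, in a range of adjusted p from 0.391 to 0.866 over the alternatives. That of Cdh11 was -1.22 without ESC replicate 5 (adjusted p = 0.0548, the lowest over the alternatives) and 1.2 with that library alone as ESC (adjusted p = 0.207). Without EpiSC replicate 4, the highest of its group, the change of Cdh11 was 0.46. None of these was called. Of 10 other EMT regulators tested, 5 were lower in ESC, and the median log2 change of the 10 was -1.47. The lower ones included Ets1 (log2 -4.47) and Sox9, at 0 to 0.11 TPM in ESC against 0.38 to 3.17 TPM in EpiSC. Of the 20 epithelial genes, 3 were higher and 11 lower in ESC (median log2 -1.39), the lower ones led by Esrp1 (log2 -5.16), Krt18 (log2 -3.93) and Cldn6 (log2 -3.80), and Cdh1 was not called (log2 0.45 ± 0.22).

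In kEpiSC against EpiSC, edgeR called 0 of 7 tested, with 1.26% of all genes called. At an unadjusted p under 0.05 there were 4 of 7, against 2023 of all 13923 genes, and DESeq2 called 1 of 7, against 599 of all genes. The log2 changes ran from -2.20 to -0.22. Without EpiSC replicate 1, Zeb1 (log2 -1.86, adjusted p = 0.0136) and Vim (log2 -1.83, adjusted p = 0.0347) were called lower in kEpiSC, and over the alternatives their adjusted p reached 0.986 and 0.99. In kiPSC against ESC, edgeR also called 0 of 7, with 0.144% of all genes called. At an unadjusted p under 0.05 there were 0, against 765 of all genes, and DESeq2 called 0, against 83. The log2 changes ran from -1.01 to 0.55.

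The JNK inhibitor was compared with iCD1 alone day by day. None of the 8 genes was called by edgeR on any day, where 0% of all genes were called on day 1, 0.00672% on day 2 and 0% on day 3. DESeq2 called 0 of 8 on each day as well, against 0, 1 and 3 of all 14892 genes on days 1, 2 and 3. At an unadjusted p under 0.05 there were 0 of 8 on each day, against 271, 430 and 498 of all genes. The difference in the JNKi effect between day 3 and day 1 was also called for 0 of 8, with 0% of all genes called, 0 of 8 at an unadjusted p under 0.05 (339 of all genes) and 0 by DESeq2 (1 of all genes).

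Snai1 had 78.2 and 63.6 TPM with JNKi against 78.6 and 68.5 TPM without it on day 1, 104.0, 66.8 and 44.6 TPM against 74.4 and 81.0 TPM on day 2, and 22.1 and 25.0 TPM against 28.8 and 17.7 TPM on day 3. Cdh2 had 143.5 and 120.4 TPM with JNKi against 128.1 and 121.9 TPM without it on day 1, 126.2, 137.7 and 109.8 TPM against 135.3 and 144.6 TPM on day 2, and 123.3 and 130.6 TPM against 140.8 and 144.6 TPM on day 3. Twist1 had 4.48 and 4.50 TPM with JNKi against 4.87 and 3.47 TPM without it on day 1, 31.2, 16.6 and 6.68 TPM against 25.7 and 24.2 TPM on day 2, and 30.0 and 34.8 TPM against 36.5 and 43.0 TPM on day 3. Libraries with and without the inhibitor overlapped in all 3 genes on days 1 and 2 and in Snai1 on day 3, and the day 3 values of Twist1 and Cdh2 with JNKi lay below those without it.

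How large a change these libraries leave room for differs among the genes. For Cdh2 the 95% interval of the log2 change ran from -0.17 to 0.28 on day 1, from -0.37 to 0.03 on day 2 and from -0.34 to 0.10 on day 3. For Vim it ran from -0.46 to 0.40, from -0.39 to 0.39 and from -0.40 to 0.46. For Snai1 it ran from -0.66 to 0.52, from -0.66 to 0.41 and from -0.68 to 0.72. Intervals were wider for Twist1 (from -1.18 to 1.37, from -1.38 to 0.43 and from -1.25 to 0.73) and for Snai2, whose counts were lowest (from -1.44 to 0.89, from -1.90 to 0.84 and from -1.63 to 0.88). Zeb1, Zeb2 and Cdh11 had estimates between -0.33 and 0.16 over the 3 days. These intervals are per gene and do not allow for the number of genes compared.

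**Figure D4:**
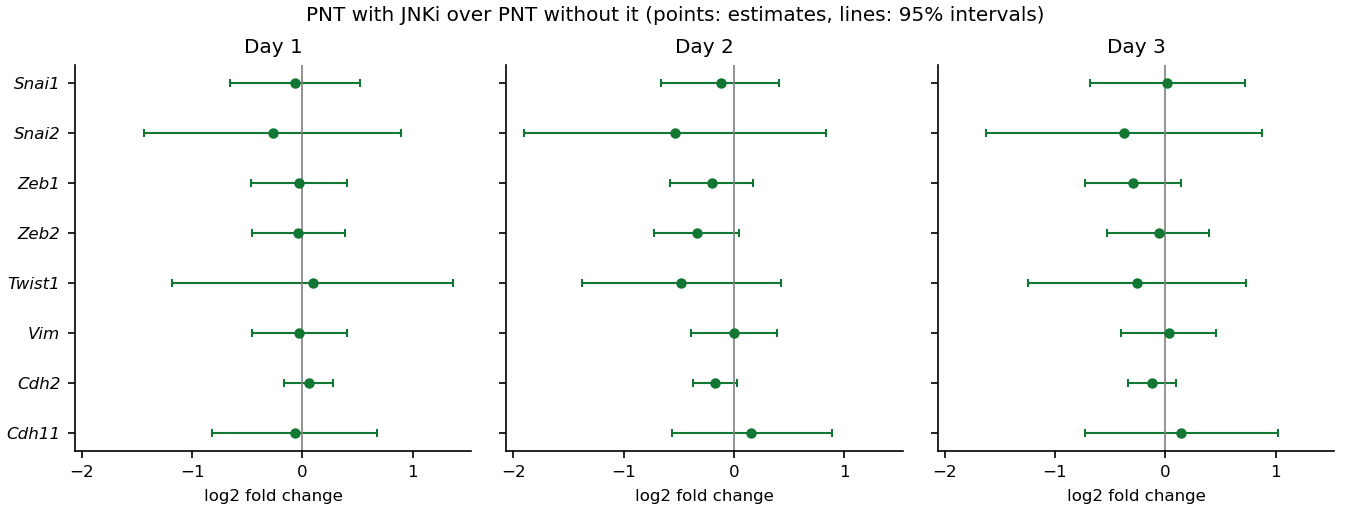
Log2 fold change of PNT with JNKi over PNT without it for the 8 genes on days 1, 2 and 3 (3 panels); points are estimates and lines 95% intervals. All intervals include 0, and they are narrowest for Cdh2 (from -0.17 to 0.28 on day 1) and wide for Snai2 and Twist1.

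Among primed cells, the JunKO libraries had less Vim and less Zeb1 than the WT libraries. Vim was at 142.2 TPM in JunKO-iEpiSC against 377.7 TPM in WT-iEpiSC, and at 152.9 TPM in JunKO-kiEpiSC against 318.7 TPM in WT-kiEpiSC. Zeb1 was at 1.48 TPM in JunKO-iEpiSC against 8.62 TPM in WT-iEpiSC, and at 2.16 TPM in JunKO-kiEpiSC against 5.70 TPM in WT-kiEpiSC. In both genes both JunKO libraries were below both WT libraries. Vim was 2.37-fold lower (log2 -1.25 ± 0.13, adjusted p = 0.00512) and Zeb1 4.87-fold lower (log2 -2.29 ± 0.29, adjusted p = 0.0115). They were 2 of 8 genes called, both lower, where 0.335% of 13152 genes were called and 0.129% were called lower. Low values also occurred in primed cells of the other sets. Zeb1 was at 1.92 and 2.04 TPM and Vim at 185.4 and 207.5 TPM in kEpiSC. EpiSC replicate 1 had Zeb1 at 0.26 TPM and Vim at 56.2 TPM, and replicates 2 to 4 had 6.12 to 11.8 TPM and 455.5 to 1175 TPM. These sets were not tested against JunKO.

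Each genotype had 2 primed libraries, and both calls were lost when any 1 of the 4 was left out. Vim then had log2 changes from -1.32 to -1.17 with adjusted p from 0.185 to 0.286, and Zeb1 from -2.63 to -1.97 with adjusted p from 0.185 to 0.406. Over all alternatives, adjusted p ran from 2.4e-13 to 0.794 for Vim and from 1.13e-09 to 0.406 for Zeb1. The fibroblast marker sum was 9.64 and 3.74 TPM in JunKO against 12.9 and 9.33 TPM in WT primed libraries. Most of it was Thy1, Lum and Col6a3 were at 0 in all 4 libraries, and Dcn was at 0.3 to 0.77 TPM.

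The other 6 genes were not called between the primed genotypes. Cdh2 had 11.3 and 10.2 TPM in JunKO against 15.7 and 20.0 TPM in WT (log2 -0.81 ± 0.24, adjusted p = 0.218). Snai1 had 6.27 and 6.16 TPM in JunKO against 11.6 and 9.66 TPM in WT (log2 -0.79 ± 0.31, adjusted p = 0.484). Both were lower in both JunKO libraries. Twist1 had 36.9 and 24.0 TPM in JunKO against 33.6 and 29.8 TPM in WT, and Zeb2 6.81 and 2.10 TPM against 5.74 and 3.66 TPM, with the genotypes overlapping. Cdh1 was at 389.1 and 415.5 TPM in JunKO against 192.3 and 168.0 TPM in WT and was not called (log2 1.12 ± 0.34).

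On day 3 in iCD1, edgeR called 0 of 8 genes between JunKO and WT, where 1.57% of all genes were called. At an unadjusted p under 0.05 there was 1 of 8, Cdh11, against 1681 of all 13152 genes, and DESeq2 called 0, against 212 of all genes. Vim had 327.0 and 298.1 TPM in JunKO against 425.0 and 362.1 TPM in WT, and Zeb1 16.2 and 12.9 TPM against 15.0 and 11.9 TPM. Snai1 had 17.1 and 14.9 TPM in JunKO against 25.2 and 17.8 TPM in WT, and Twist1 72.6 and 49.2 TPM against 94.0 and 76.6 TPM. The genotypes overlapped in Zeb1, while Vim, Snai1 and Twist1 were lower in both JunKO libraries without a call.

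Cdh11 was higher in JunKO on day 3, at 25.0 and 15.8 TPM in JunKO against 7.09 and 7.83 TPM in WT, and was not called (log2 1.46 ± 0.46, adjusted p = 0.175). Leaving out JunKO-kiEpiSC-JNKi replicate 1 or 2, libraries of another group, changed the shared spread and brought adjusted p to 0.0162 and 0.0150, within a range of 1.3e-06 to 0.621 over the alternatives. Among 7 cadherins tested, 3 were called higher in JunKO and 0 lower, Cdh5, a cadherin of endothelium, at 5.24 to 8.76 TPM in JunKO against 0.16 to 0.46 TPM in WT, Cdh1 (log2 1.78 ± 0.38) and Cdh3 (log2 1.46), with a median log2 of 1.46 against 0.00 for all genes. Cdh1 was at 43.9 and 81.4 TPM in JunKO against 14.6 and 22.3 TPM in WT. The ratio of Cdh2 to Cdh1 was 3.04 and 1.18 in JunKO against 7.25 and 5.28 in WT on day 3, and 0.0291 and 0.0244 against 0.0814 and 0.119 in primed cells, the JunKO values being the lower at both stages.

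Both genotypes showed the rise of these genes over 3 days in iCD1. In WT, 6 of 8 were called higher on day 3 than in primed cells, where 27.5% of all genes were called and 14.4% were called higher. They were Cdh11 (log2 3.51 ± 0.83), Cdh2 (log2 2.47 ± 0.24), Zeb2 (log2 2.11 ± 0.32), Twist1 (log2 1.53 ± 0.31), Zeb1 (log2 1.02 ± 0.27) and Snai1 (log2 1.00 ± 0.32). In JunKO, 7 of 8 were called higher, where 23.8% of all genes were called and 13.2% were called higher. They were Cdh11 (log2 3.90 ± 0.71), Cdh2 (log2 3.31 ± 0.26), Zeb1 (log2 3.26 ± 0.30), Zeb2 (log2 2.89 ± 0.32), Snai1 (log2 1.37 ± 0.33), Twist1 (log2 1.15 ± 0.32) and Vim (log2 0.97 ± 0.15). Snai2 was not called in either genotype, and Vim in WT had a log2 change of -0.13.

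Cdh2 was the firmest of these. It had 133.4 and 96.0 TPM on day 3 against 11.3 and 10.2 TPM in primed JunKO cells, and 105.6 and 117.5 TPM on day 3 against 15.7 and 20.0 TPM in primed WT cells. The WT count fell to 1 of 8, Cdh2 alone, without the WT-kiEpiSC library, and the JunKO count to 3, Cdh2, Zeb1 and Zeb2, without the JunKO-kiEpiSC library. Without WT-kiEpiSC-iCD1 replicate 1, Zeb1 (log2 0.84, adjusted p = 0.084) and Snai1 (log2 0.72, adjusted p = 0.195) were not called in WT, and without JunKO-kiEpiSC-iCD1 replicate 1 Twist1 was not called in JunKO (log2 0.86, adjusted p = 0.124). Of the lists, 8 of 11 other EMT regulators were higher and 1 lower on day 3 in each genotype, and epithelial genes were lower, 14 of 20 in JunKO and 9 of 20 in WT, with 0 higher in either. Their median log2 change was -2.13 in JunKO and -1.50 in WT, against 0.04 and 0.02 for all genes.

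The change to day 3 was compared between genotypes directly. edgeR called 0 of 8 genes, where 0.0152% of all genes were called. At an unadjusted p under 0.05 there were 3 of 8, against 730 of all genes, and DESeq2 called 2, against 22 of all genes. Zeb1 changed by 2.24 ± 0.36 log2 units more in JunKO than in WT (adjusted p = 0.15, and 0.0282 by DESeq2), and Vim by 1.10 ± 0.19 more (adjusted p = 0.158, and 0.00359 by DESeq2). These are the genes that were lower in primed JunKO cells, and the same primed libraries enter both comparisons. Without JunKO-kiEpiSC-JNKi replicate 1 or 2, Vim was called (adjusted p = 0.0387 and 0.0408). Over the alternatives, adjusted p ran from 1.01e-05 to 1 for Zeb1 and from 3.9e-05 to 1 for Vim.

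**Figure D5:**
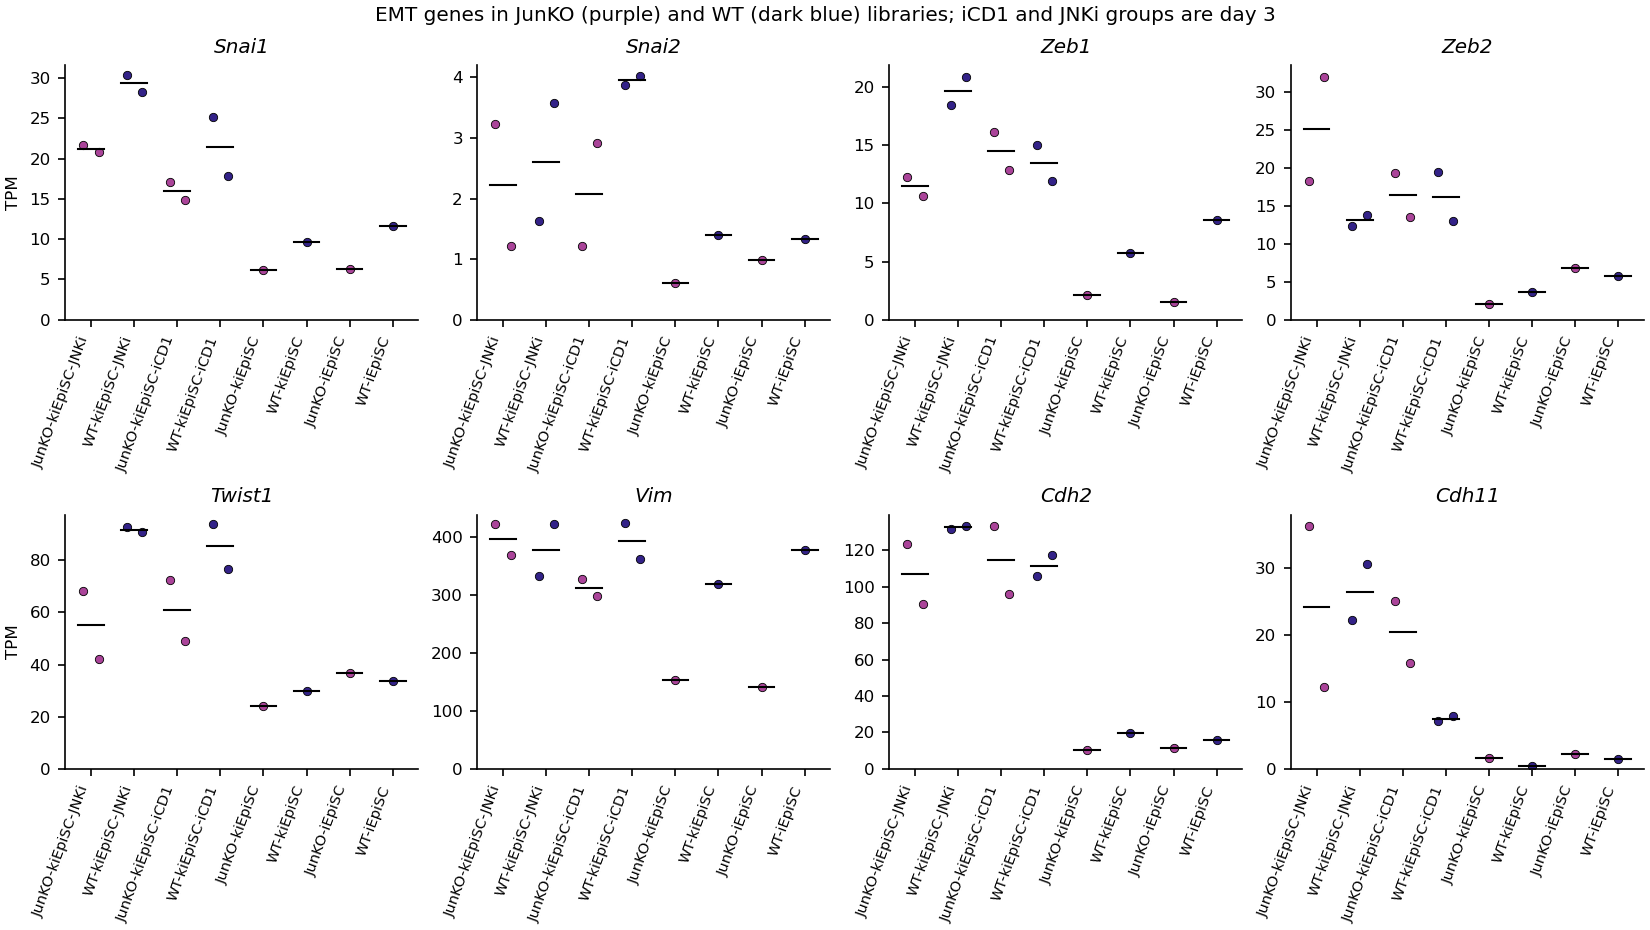
TPM of the 8 genes in JunKO (purple) and WT (dark blue) libraries of iCD1 with JNKi on day 3, iCD1 on day 3 and primed cells, 1 panel per gene with its own vertical axis from 0; points are libraries and bars group means. Vim and Zeb1 are lower in both primed JunKO libraries, and Cdh2 is at 90.7 to 133.4 TPM in all 8 libraries of day 3.

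With JNKi on day 3, edgeR called 0 of 8 between JunKO and WT, where 0.935% of all genes were called, with 2 of 8 at an unadjusted p under 0.05 (2144 of all genes) and 0 called by DESeq2 (197 of all genes). Zeb1 had 12.3 and 10.6 TPM in JunKO against 18.5 and 20.9 TPM in WT (log2 -0.71 ± 0.21, adjusted p = 0.122). Twist1 had 68.3 and 42.2 TPM in JunKO against 92.7 and 90.8 TPM in WT (log2 -0.77 ± 0.26, adjusted p = 0.176). In both genes both JunKO libraries were below both WT libraries. Without JunKO-kiEpiSC-JNKi replicate 1, Twist1 (log2 -1.21, adjusted p = 0.018) and Cdh11 (log2 -1.20, adjusted p = 0.0422) were called lower, their adjusted p over the alternatives reaching 0.577 and 0.992.

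JNKi was also compared with iCD1 alone within each genotype on day 3. In WT, edgeR called 0 of 8, where 0.471% of all genes were called, with 1 of 8 at an unadjusted p under 0.05 (1775 of all genes), and DESeq2 called 1, Cdh11 (144 of all genes). Cdh11 had 22.2 and 30.6 TPM with JNKi against 7.09 and 7.83 TPM without it in WT (log2 1.80 ± 0.46, adjusted p = 0.117, and 0.0154 by DESeq2). It was called without either JunKO-kiEpiSC-JNKi library (adjusted p = 0.0112 and 0.0110, in a range from 4.14e-10 to 0.589). In JunKO, edgeR called 0 of 8, where 0.0456% of all genes were called, with 0 of 8 at an unadjusted p under 0.05 (1649 of all genes) and 0 by DESeq2 (94 of all genes). Cdh11 had 36.1 and 12.2 TPM with JNKi against 25.0 and 15.8 TPM without it in JunKO, and the 2 JNKi libraries lay on either side of the iCD1 libraries.

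The JNKi effect was then set against itself between genotypes, and edgeR called 0 of 8, where 0% of all genes were called, with 2 of 8 at an unadjusted p under 0.05 (750 of all genes) and 0 by DESeq2 (1 of all genes). Cdh11 had the largest estimate, -1.61 ± 0.62 log2 units in JunKO minus WT (adjusted p = 0.855). Without JunKO-kiEpiSC-JNKi replicate 1 it was -2.66 (adjusted p = 0.00962, in a range from 0.000622 to 1). Cdh11 was thus the gene whose reading depended most on that library, which had 36.1 TPM against 12.2 TPM in its replicate. The PNT series holds no JunKO cells and cannot show a difference between genotypes. On day 3 of that series, Cdh11 had 2.68 and 4.6 TPM with JNKi against 3.29 and 3.31 TPM without it.

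Ordered by mean TPM over the 18 groups, the genes had different summits. Snai1 was highest in PNT-D2 (77.7 ± 4.68 TPM, SD, n = 2) and PNT-D1 (73.6 ± 7.19, n = 2), which overlapped each other and the JNKi groups of the same days, and next came the day 3 groups at 16.01 to 29.3 TPM. Zeb2 was highest in JunKO-kiEpiSC-JNKi (25.2 ± 9.71 TPM, n = 2) and PNT-D2 (21.1 ± 3.62, n = 2), which did not differ beyond their spread. It was lowest in ESC (0.486 ± 0.885, n = 5) and next in kiPSC (1.375 ± 1.421, n = 2), which overlapped. The kiPSC value rests on few reads, as given above. In CPM, Zeb2 had 0.782 and 0.523 in kiPSC, 0, 0.455, 0.231 and 0 in ESC replicates 1 to 4, and 4.91 in ESC replicate 5. Twist1 was highest in WT-kiEpiSC-JNKi (91.7 ± 1.33 TPM, n = 2) and WT-kiEpiSC-iCD1 (85.3 ± 12.3, n = 2), which overlapped, followed by the day 3 JunKO groups and by PNT-D3 (39.7 ± 4.603, n = 2). Its day 3 level was thus higher in the WT libraries of the Jun set than in PNT-D3, though these are separate experiments and were not tested against each other.

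Cdh2 was at 107.0 to 142.7 TPM in the 10 groups in iCD1, where neighbours in the order overlapped except PNT-D2 and WT-kiEpiSC-JNKi, and next came EpiSC at 30.3 ± 12.96 TPM (n = 4). ESC (3.78 ± 1.27, n = 5) and kiPSC (3.24 ± 0.325, n = 2) were lowest and overlapped. Vim was highest in EpiSC (565.4 ± 463.1 TPM, n = 4), whose spread covered every other group, and its lowest group means were in JunKO-kiEpiSC and JunKO-iEpiSC (152.9 and 142.2 TPM, 1 library each). Single libraries of other groups were lower, at 101.4 TPM in kiPSC replicate 2 and 56.2 TPM in EpiSC replicate 1. Zeb1 was highest in WT-kiEpiSC-JNKi (19.7 ± 1.73, n = 2) and lowest in JunKO-iEpiSC, kEpiSC (1.98 ± 0.0849, n = 2) and JunKO-kiEpiSC, which lay between 1.48 and 2.16 TPM. Cdh11 was highest in WT-kiEpiSC-JNKi (26.4 ± 5.92, n = 2), JunKO-kiEpiSC-JNKi (24.2 ± 16.9, n = 2) and JunKO-kiEpiSC-iCD1 (20.4 ± 6.53, n = 2), which did not differ beyond their spread. Snai2 was highest in WT-kiEpiSC-iCD1 (3.96 ± 0.106, n = 2), and its other groups had means of 0.41 to 2.84 TPM.

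Correlations of log2(TPM + 1) over the 38 libraries describe which genes shared a pattern. The libraries include replicates of the same groups and fall into clusters by stage, so that these values carry no test. Among the 8 genes, Zeb2 and Cdh2 were closest (r = 0.93), then Snai1 and Cdh2 (r = 0.80) and Snai1 and Zeb2 (r = 0.74). Snai1 and its paralog Snai2 had the lowest value of all pairs (r = 0.20). Among 13211 genes with a mean of at least 5 TPM in some group, those most like Snai1 were Hes7 and Rasgrp3 (r = 0.94 each) and Tbx6 (r = 0.93), of which Hes7 and Tbx6 belong to presomitic mesoderm. Those most like Zeb2 were Prtg (r = 0.95), Tead2 (r = 0.94) and Cplx2 (r = 0.93), and those most like Cdh2 were Phc2, Antxr2 and Greb1 (r = 0.97 each). Twist1 was most like Nrep, Fgfbp3 and Prkar2b (r = 0.92 each), and Cdh11 most like Sparcl1 (r = 0.84), Bicc1 (r = 0.82) and Frem1 (r = 0.80). Zeb1 was most like Ncam1 (r = 0.86), a neural cell adhesion molecule, then Csrnp2 and Lrp12 (r = 0.85 each). The highest values for Vim (Tmsb4x, r = 0.78) and Snai2 (Gm29361, r = 0.72) were lower. With a pseudocount of 0.1 in place of 1, 1 of the 3 genes was shared for Snai1, Snai2, Zeb1 and Zeb2, 2 for Cdh2 and Cdh11, and 3 for Twist1 and Vim.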

How the data were processed

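According to the methods and labels, the authors aligned reads with Bowtie2, estimated gene expression with RSEM on mm10 and deposited, for each library, RSEM expected counts, TPM and FPKM per gene (FPKM was not used; versions not given in the sources used here). The TRUSEQ kit of the labels differs from the library kit named in the methods. RSEM gives each gene a length per library, which enters TPM and not counts.

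The 8 genes and the gene lists were chosen with earlier results of these data known. Expected counts were rounded, normalised by TMM, filtered with filterByExpr (minimum count 10) and tested with edgeR 4.0.16 quasi-likelihood fits in R 4.3.3, with Benjamini-Hochberg adjustment over all genes tested and a threshold of 0.05. There were 3 fits: ESC, EpiSC, kEpiSC and kiPSC (13 libraries, 13923 genes, 9 residual degrees of freedom); kEpiSC, kiPSC and PNT (17 libraries, 14892 genes, 9); and WT with JunKO (12 libraries, 13152 genes, 5), where primed iEpiSC and kiEpiSC shared a genotype term and a line term. SE was taken from the fold change and the F statistic of each test. The 22 comparisons share controls within a fit.

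All 8 genes are named. The rule took, from each list whose count is given, up to 3 called genes with the largest change. Some counts carry fewer names, genes near 0 are given in TPM, and a result that is not reported here is left out. The scripts were tested on simulated counts. Alternatives were RLE, DESeq2 1.42.0, no filter beyond 1 count, all 38 libraries in one fit, a replicate block, each library left out and ESC replicate 5 alone. A legend of the study calls RNA-seq replicates biological, and the sources used here do not say for each group whether they are separate cultures, so p-values measure only the spread between these libraries, which may be technical. Deposited totals of 2164711 to 15944950 counts set the precision.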

Additional observations from a re-analysis of the deposited data

Results flagged for a closer look

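ESC replicate 5 lay far above the other 4 ESC libraries in 3 of the genes described. Snai2 was at 3.31 TPM in replicate 5, against 0.26 to 0.87 TPM in replicates 1 to 4, a gap of 0.8 of the group's whole range. Zeb2 was at 2.06 TPM in replicate 5, against 0 to 0.24 TPM in replicates 1 to 4 (gap 0.883 of the range). Cdh11 was at 8.86 TPM in replicate 5, against 1.29 to 2.16 TPM in replicates 1 to 4 (gap 0.885 of the range). With 5 samples the 95% critical value of this gap is 0.71. Of 16 groups of values tested, 8 genes each in ESC and EpiSC, these 3 passed it, and chance flags about 1 in 20 such groups. The sum of 7 fibroblast markers was 92.2 TPM in replicate 5, against 4.3 to 10.7 TPM in replicates 1 to 4, and its part in these values was not tested.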

How the results depend on the processing

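Of 173 tested values, 46 were called. Of these, 26 were called under every alternative run and 20 were lost in at least 1, and 0 reversed. Of the 127 that were not called, 18 were called in at least 1 alternative. The counts of genes called that changed by more than 1.5 times were these. In kEpiSC against EpiSC, DESeq2 called 1 (599 of all genes) and the fit of all 38 libraries 3. The same fit called 1 in PNT-D2 against PNT-D1, 1 in PNT-D3 against PNT-D2, 0 in JunKO against WT primed cells, 3 in WT day 3 against primed cells and 4 in JunKO day 3 against primed cells. Without a filter beyond 1 count, 1 was called in JunKO against WT on day 3 in iCD1, 2 with JNKi, 1 for JNKi in WT, 1 for the difference in the JNKi effect and 3 for the difference in the change to day 3. DESeq2 called 1 for JNKi in WT (144 of all genes) and 2 for the change to day 3 (22 of all genes). For the other settings, the left-out libraries and the replicate block, the share of all genes called is not reported here. A setting may therefore have called more or fewer genes of every kind, and these counts are not a result about the 8 genes. The cause was not tested.

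Leaving out each library in turn gave counts of 3 to 4 in ESC against EpiSC, 0 to 2 in kEpiSC against EpiSC, 5 to 7 on day 1 and 7 to 8 on day 3 against kEpiSC, and 4 to 5 in kiPSC against kEpiSC. In the Jun set the counts were 0 to 2 between primed genotypes, 0 to 1 on day 3 in iCD1, 0 to 2 with JNKi, 0 to 1 for JNKi in WT, 0 to 1 for the difference in the JNKi effect, 1 to 6 for the change in WT, 3 to 7 for that in JunKO and 0 to 1 for their difference. The other counts did not change. Where a group was left with 1 library, it was assumed to vary like the other groups.

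Whether replicate numbers pair the samples could not be settled, and the main fits did not pair them. Deviations of same-numbered libraries correlated at -0.02 to 0.30 in groups with at most 2 shared numbers and at -0.05 to 0.06 in ESC and EpiSC. They were all positive in the Jun set on day 3 (0.06 to 0.30) and between PNT with and without JNKi (0.15 to 0.25). With the replicate block, 2 genes were called in JunKO against WT with JNKi, 1 for JNKi in WT and 2 for the change to day 3, and Snai2 was called in kiPSC against kEpiSC (log2 1.51). Snai2, with 0 to 29 counts per library, and the primed JunKO and WT groups, with 1 library per line, limit what these data resolve.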
